A study of Mus musculus with 4 samples.

Results

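This account covers 10 genes of the Golgi apparatus: the trans-Golgi network proteins Tgoln1 and Tgoln2, the golgins Golga1, Golga2, Golga3, Golga4, Golga5, Golgb1 and Gcc2, and the Golgi stacking protein Gorasp2. All 10 were among the 22722 genes counted. The symbols were chosen by gene family with results of the same comparison already known, in which Tgoln1 ranked 18 of 11027 tested genes by p. The differences between groups given for these genes are therefore descriptions, and their p-values support nothing about the list.

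RNA came from MPC11, an antibody-secreting plasmacytoma line of the mouse. The study compared 2 groups of 2 libraries each: shGFP, cells with a lentiviral hairpin against GFP, and Ell2-KD, cells with a hairpin against Ell2, an elongation factor of RNA polymerase II. All 4 cultures were transduced for 18 h, kept in puromycin for 72 h and expanded for another 72 h, so the controls too carried virus and were drug-selected. The depleted cells carried a single hairpin (1C7), and effects of that hairpin on other genes cannot be told apart from those of losing Ell2. Each group had 2 biological replicates, but the labels do not state whether they came from separate transductions, and p-values then measure only the spread between these libraries.

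Library totals ran from 3496471 counts (Ell2-KD replicate 2) to 13914488 counts (Ell2-KD replicate 1). Ell2 was lower in both depleted libraries, as labelled, at 87.8 and 115 CPM against 938 and 996 CPM in shGFP (log2 change -3.25 ± 0.23 SE, edgeR adjusted p = 0.00032). CPM are counts relative to the library total, on the TMM scale, which also corrects for composition. The 9 plasma cell markers looked for, among them Igj, Irf4 and Sdc1, had counts in every library. On the scale of unscaled library totals they summed to 21680 and 16700 CPM in shGFP and to 17670 and 13910 CPM in Ell2-KD. The largest relative gaps between the groups among the 9 were those of 3 markers, named after their values were seen: Tnfrsf17 at 19.1 and 24.8 CPM in shGFP against 1.29 and 0.29 CPM in Ell2-KD, Pou2af1 at 1134 and 896 against 630 and 465 CPM, and Sdc1 at 790 and 642 against 484 and 340 CPM. Their part in the values below was not tested. The 6 T cell markers summed to between 0.79 and 4.0 and the 6 myeloid markers to between 1.2 and 4.46. Of 8 fibroblast and epithelial markers, Epcam alone stood at 450 to 623 CPM in all libraries, and the other 7 summed to between 1.51 and 5.15.

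The trans-Golgi network is the last station of the Golgi, where secreted and membrane proteins are sorted into carriers, and a plasma cell line passes large amounts of immunoglobulin through it. Tgoln1 encodes a membrane protein that cycles between this compartment and the cell surface and is widely used to mark it. Golgins are long coiled-coil proteins anchored to Golgi membranes at one end, which catch passing vesicles and help hold the stacks together. Golga1, Golga4 and Gcc2 carry a GRIP domain at the anchored end of the protein and sit on trans-Golgi membranes. Small GTPases such as Arl1 bind them there, while Golga2 sits on the cis side.

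Tgoln1 showed the widest gap between groups of the 9 genes that could be tested. For replicates 1 and 2 in that order, here and below, its counts were 708 and 407 in shGFP against 264 and 101 in Ell2-KD. On the normalised scale shGFP stood at 84.4 and 80.8 CPM, and Ell2-KD at 18.7 and 29.6 CPM. Both depleted libraries lay far below both controls, whose values nearly coincided. The means were 82.6 ± 2.59 CPM (SD, n = 2) and 24.1 ± 7.66 CPM (SD, n = 2). The fitted log2 change was -1.79 ± 0.36 (SE), a level 3.46-fold lower in Ell2-KD. The 95% interval of the log2 change ran from -2.59 to -0.99. The log2 difference was -2.16 between the libraries numbered 1 and -1.44 between those numbered 2. It did not pass the test over all genes (edgeR adjusted p = 0.28), though it did in DESeq2 (adjusted p = 0.00653). In the annotation used here (GENCODE M21) its exons overlap those of Gm20536, a noncoding transcript on the opposite strand, and without a stated strand setting reads of the pair cannot be told apart.

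Tgoln2, named as the sister gene of Tgoln1, was listed at 0 in all 4 libraries. A count of 0 allows up to 3 counts, which is 0.36 and 0.59 CPM in shGFP and 0.22 and 0.86 CPM in Ell2-KD (per library, unscaled, counting error only). The sources used here do not state how reads that match both genes were counted. GENCODE M21, used here for exon lengths, lists no gene under the symbol Tgoln2. Whether any read could be assigned to Tgoln2 in the authors' annotation is not known.

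**Figure D1:**
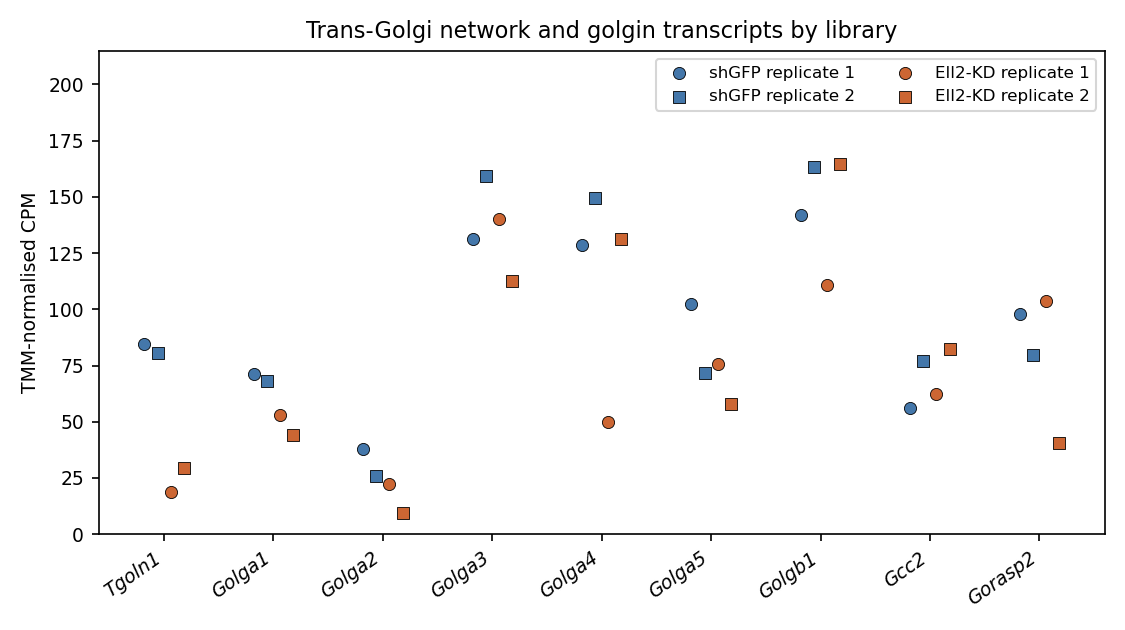
TMM-normalised CPM (linear axis) of the 9 tested genes, with 1 point per library; circles are replicates 1, squares replicates 2, blue shGFP and orange Ell2-KD. Tgoln1 sits at 80.8 and 84.4 CPM in the controls and at 18.7 and 29.6 CPM in the depleted cells, while most other genes overlap between groups.

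The golgins with a GRIP domain did not share one pattern. Golga1 stood at 71.3 and 68.3 CPM in shGFP and at 53.1 and 44.2 CPM in Ell2-KD. Its depleted libraries both lay below both controls, by less than in Tgoln1, with a log2 change of -0.52 ± 0.31 (SE). Golga4 stood at 129 and 150 CPM in shGFP, and at 49.9 CPM in Ell2-KD replicate 1 but 131 CPM in replicate 2. The 2 groups overlapped and the low value came from 1 depleted library: the log2 change of -0.63 ± 0.41 (SE) became -1.48 without Ell2-KD replicate 2 and -0.08 without Ell2-KD replicate 1. Gcc2, which also binds Rab GTPases, was the only tested gene of the 9 with a higher mean in the depleted cells. It stood at 56.2 and 77.2 CPM in shGFP and at 62.4 and 82.3 CPM in Ell2-KD. Its log2 change of 0.11 ± 0.32 (SE) had a 95% interval from -0.59 to 0.82, and its sign turned without shGFP replicate 1 (-0.086) or Ell2-KD replicate 2 (-0.095).

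Golga2 is the cis-Golgi golgin that tethers vesicles arriving from the endoplasmic reticulum. Its mean level per length was the lowest of the 9 tested genes in both groups, as given below. In replicate 1 alone it was not the lowest. Per kb of exon it stood there at 6.89 CPM in shGFP, above Gcc2 at 5.83. In Ell2-KD replicate 1 it stood at 4.05, above Tgoln1 at 3.74 and Golga4 at 3.67. The counts of Golga2 were 318 and 131 in shGFP and 314 and 32 in Ell2-KD. This gave 37.9 and 26.0 CPM in shGFP and 22.3 and 9.37 CPM in Ell2-KD. The depleted libraries lay below both controls, but the controls differed from one another by more than the lower of them differed from the nearest depleted library. The log2 change was -0.99 ± 0.52 (SE), and it ranged from -1.77 without Ell2-KD replicate 1 to -0.52 without Ell2-KD replicate 2. Exons of Golga2 overlap those of Swi5, on the opposite strand.

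Golga3, Golga5 and Golgb1, golgins of the stacks and rims, overlapped between the groups. Golga3 stood at 131 and 159 CPM in shGFP and at 140 and 113 CPM in Ell2-KD (log2 change -0.20 ± 0.26 SE). The log2 change was -0.36 without Ell2-KD replicate 1 and -0.05 without either Ell2-KD replicate 2 or shGFP replicate 2. Golga5, a membrane-spanning golgin, stood at 102 and 71.8 CPM in shGFP and at 75.8 and 58.0 CPM in Ell2-KD (log2 change -0.38 ± 0.31 SE). Without shGFP replicate 1, the highest library for Golga5, its log2 change was -0.09. Golgb1, the gene of giantin, the longest of the golgins, stood at 142 and 164 CPM in shGFP and at 111 and 165 CPM in Ell2-KD (log2 change -0.15 ± 0.28 SE). Its 95% interval ran from -0.76 to 0.46, which holds both no difference and a level 1.5-fold lower. The log2 change was -0.46 without Ell2-KD replicate 2 and 0.12 without Ell2-KD replicate 1. Exons of Golgb1 overlap those of 2 genes on the same strand, and the part of such reads in its values was not tested.

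Gorasp2, which links neighbouring Golgi cisternae, differed more between the 2 depleted libraries than between the groups. It stood at 97.9 and 79.6 CPM in shGFP and at 104 and 40.7 CPM in Ell2-KD. The first depleted library lay above both controls and the second below both. Its log2 change of -0.29 ± 0.40 (SE) was -1.12 without Ell2-KD replicate 1 and 0.22 without Ell2-KD replicate 2. Exons of Gorasp2 overlap those of 2 genes on the opposite strand, among them Tlk1, which stood at 137 and 103 CPM in shGFP and at 79.0 and 119 CPM in Ell2-KD. The part of such reads in the Gorasp2 values was not tested.

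**Figure D2:**
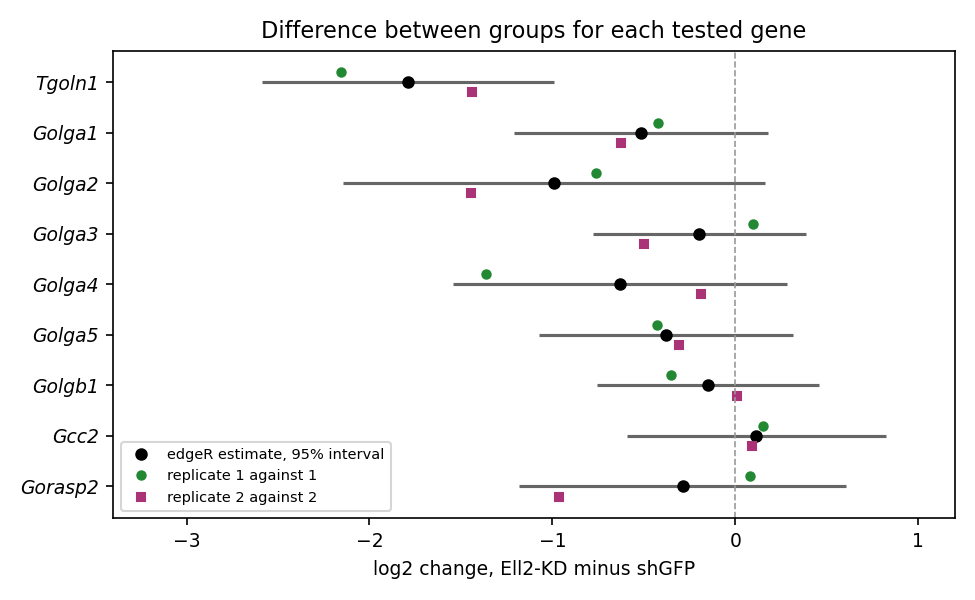
Log2 change of each tested gene, Ell2-KD minus shGFP: black points are edgeR estimates with 95% intervals, green circles the libraries numbered 1 and purple squares those numbered 2. Tgoln1 lies at -1.79, Gcc2 at 0.11, and the 2 replicate numbers stand far apart for Golga4 (-1.36 and -0.19) and Gorasp2 (0.08 and -0.96).

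Across the list, the log2 change was negative for 8 of the 9 tested genes and positive for 1. The median was -0.38, and -0.33 without Tgoln1; with 1 library left out it ran from -0.32 (without shGFP replicate 1) to -0.58 (without Ell2-KD replicate 1). Over all genes tested 5525 were negative and 5502 positive, with a median of -0.00. All 9 passed the filter on low counts and Tgoln2 did not. None passed the edgeR threshold of 0.05 over all genes, against 0.0453% of all tested genes. At an unadjusted p under 0.05 the list gave 1 gene, Tgoln1, against 5.82% of all tested genes. DESeq2 called 1, again Tgoln1, against 0.207% of the genes it tested. Both depleted libraries lay below both controls for 3 of the 9, Tgoln1, Golga1 and Golga2, against 18.5% of all tested genes, and above both controls for 0 of the 9, against 17.4%. These counts come from the comparison that was known when the list was drawn up, and nothing is read from them. Summed over the 9 genes, the level was 852 and 876 CPM in shGFP and 637 and 673 CPM in Ell2-KD. Without Tgoln1 it was 767 and 795 CPM against 618 and 643 CPM. In bulk RNA a lower share of cells that express a gene cannot be told apart from less of its RNA per cell.

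Levels of different genes were compared per kb of exon, since long genes collect more reads. In shGFP the order was Golga5 at 25.2 ± 6.23 CPM per kb (SD, n = 2), Gorasp2 at 21.4 ± 3.13, Tgoln1 at 16.5 ± 0.52, Golgb1 at 12.9 ± 1.30, Golga1 at 12.5 ± 0.39, Golga3 at 11.5 ± 1.57, Golga4 at 10.2 ± 1.10, Gcc2 at 6.92 ± 1.54 and Golga2 at 5.81 ± 1.53 CPM per kb. The 2 libraries of Tgoln1 lay clear of those of its neighbours Gorasp2 and Golgb1, and those of Golga4 clear of Gcc2. The other neighbours in this order overlapped. By the means in Ell2-KD, Tgoln1 stood at 4.82 ± 1.53 CPM per kb, position 8 of the 9 instead of position 3. Golga2 stood last at 2.88 ± 1.66. The libraries of Tgoln1 (3.74 and 5.90) overlapped those of Golga4 (3.67 and 9.64) and Golga2 (4.05 and 1.70). Golga5 (22.0 and 16.8) and Gorasp2 (25.0 and 9.82) stayed at positions 1 and 2 by mean. Gorasp2 lay above Golga5 in replicate 1 and below Golgb1 (13.9) in replicate 2. The order depends on the length used. With the longest annotated transcript in place of all exons, Gorasp2 stood first in shGFP at 36.7 CPM per kb and Golga5 next at 25.7. Golga4, at 18.3, and Golga3, at 17.9, then stood above Tgoln1, which was at position 5 in shGFP and again at position 8 in Ell2-KD.

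**Figure D3:**
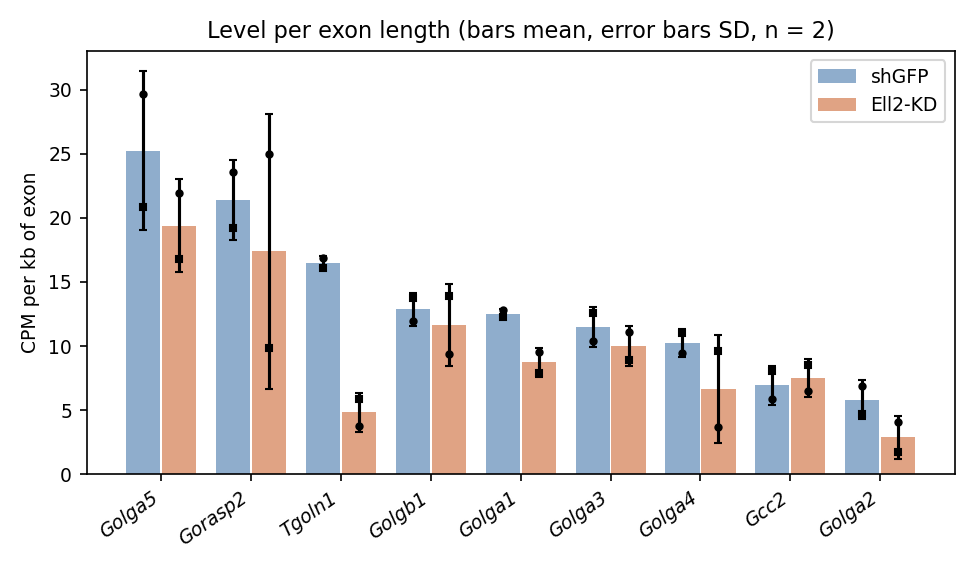
CPM per kb of exon (linear axis from 0) for the 9 tested genes in order of their shGFP level; bars are means, error bars SDs of 2 libraries, circles replicates 1 and squares replicates 2. Tgoln1 sits between Gorasp2 and Golgb1 in the controls (16.5) and near the bottom in Ell2-KD (4.82).

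The bases just upstream of the start site are shown for the 3 genes whose depleted libraries both lay below both controls. They are the 250 bases before the RefSeq start (build GRCm38.p6), 5′ to 3′ on the gene's strand, at chr6:72617001-72617250 (minus strand) for Tgoln1, chr2:39065542-39065791 (minus strand) for Golga1 and chr2:32288076-32288325 (plus strand) for Golga2. Capitals mark a CCAAT box.
Tgoln1: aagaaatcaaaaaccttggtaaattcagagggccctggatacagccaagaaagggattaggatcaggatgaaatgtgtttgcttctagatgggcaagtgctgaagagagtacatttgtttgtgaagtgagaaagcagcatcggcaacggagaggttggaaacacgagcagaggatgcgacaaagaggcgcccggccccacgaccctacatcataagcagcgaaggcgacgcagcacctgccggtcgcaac
Golga1: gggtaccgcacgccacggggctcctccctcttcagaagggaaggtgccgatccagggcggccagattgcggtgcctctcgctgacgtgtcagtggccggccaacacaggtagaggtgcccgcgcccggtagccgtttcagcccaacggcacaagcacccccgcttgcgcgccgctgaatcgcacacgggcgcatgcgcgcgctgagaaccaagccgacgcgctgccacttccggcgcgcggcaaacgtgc
Golga2: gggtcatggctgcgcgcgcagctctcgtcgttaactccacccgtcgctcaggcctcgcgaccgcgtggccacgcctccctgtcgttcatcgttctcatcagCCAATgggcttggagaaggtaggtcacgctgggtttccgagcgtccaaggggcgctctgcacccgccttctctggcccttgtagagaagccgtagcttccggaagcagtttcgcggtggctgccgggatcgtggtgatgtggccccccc

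Upstream sequences were found for 7 of the 10 genes and searched on both strands for 4 motifs. CCAAT, a common promoter element, was in those of Golga2 and Golga3, against 33.8% of 32851 RefSeq promoter windows of the same length. CACGTG, the E-box, was in the windows of Golga5, against 6.02%. ACGTGGC, known from promoters of Golgi stress genes, was in none of the 7 genes, against 2.02%, and TGACGTGG, the element of the unfolded protein response that shares its ACGTGG letters with it, in none, against 0.563%. The windows of Tgoln1 and Golga1 held none of the 4.

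Genes that work with these proteins were taken from 7 lists of 162 genes in all, of which 151 were tested. No gene of these lists passed in edgeR or in DESeq2, and 9 had an unadjusted edgeR p under 0.05, again against 5.82% of all tested genes. The median log2 change over the 151 was -0.06, with 87 negative and 64 positive.

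Among small GTPases and exchange factors of the Golgi (25 tested, 14 negative, median -0.08), Arl1, which recruits GRIP-domain golgins to trans-Golgi membranes, had the smallest p. Arl1 stood at 69.6 and 65.3 CPM in shGFP and at 30.9 and 25.2 CPM in Ell2-KD. The groups did not overlap and each varied little within itself (log2 change -1.26 ± 0.35 SE), but the gene did not pass (edgeR adjusted p = 0.54). Rab6, which binds Gcc2 and other golgins, lay on the other side, at 91.9 and 80.6 CPM in shGFP and 116 and 138 CPM in Ell2-KD (log2 change 0.55 ± 0.28 SE). Rab43 had a log2 change of 0.70 ± 0.39 (SE).

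Other golgins and Golgi matrix proteins (16 tested, 11 negative) had a median log2 change of -0.07. Glg1, a Golgi sialoglycoprotein, stood at 330 and 319 CPM in shGFP and 255 and 193 CPM in Ell2-KD (log2 change -0.54 ± 0.23 SE, edgeR adjusted p = 0.83). Gorasp1, the paralog of Gorasp2 that pairs with Golga2 on the cis side, stood at 38.8 and 52.0 CPM in shGFP and 31.8 and 27.8 CPM in Ell2-KD. Golph3, a phosphoinositide-binding Golgi protein, had a log2 change of 0.39 ± 0.26 (SE) and overlapped between groups.

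Sorting and clathrin adaptors (27 tested, 17 positive, median 0.07) leaned little to either side. Ap4e1, a subunit of the trans-Golgi adaptor AP-4, stood at 21.6 and 18.1 CPM in shGFP and 66.9 and 34.5 CPM in Ell2-KD (log2 change 1.36 ± 0.44 SE, edgeR adjusted p = 0.68). Prkd3, a protein kinase D, had a log2 change of 0.93 ± 0.31 (SE), and Cltc, the clathrin heavy chain, of 0.34 ± 0.18 (SE). In the retrieval pathway from endosomes, by which Tgoln1 protein returns to the trans-Golgi network, 11 of 21 genes were negative, with a median of -0.02. Its genes of smallest p were Snx2, at 59.7 and 64.3 CPM in shGFP and 94.6 and 100.4 CPM in Ell2-KD, Vps29 (log2 change 0.69 ± 0.37 SE) and Wdr11 (0.71 ± 0.41 SE).

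Enzymes of Golgi glycosylation (36 tested, 26 negative) had a median log2 change of -0.20, and the COG tethering complex with the Golgi SNAREs (18 tested, 11 negative) of -0.19. Galnt2, which starts O-glycans, stood at 237 and 233 CPM in shGFP and 163 and 110 CPM in Ell2-KD (log2 change -0.78 ± 0.26 SE, edgeR adjusted p = 0.71). Mgat2, which builds branched N-glycans, stood at 170 and 164 CPM in shGFP and 112 and 88.7 CPM in Ell2-KD. Galnt12 had a log2 change of -1.01 ± 0.42 (SE), Napa of -0.46 ± 0.35, Cog6 of -0.33 ± 0.26 and Cog4 of 0.53 ± 0.41. The COPI coat (8 tested, 4 negative) had a median of -0.01, with Cope at -0.29 ± 0.34, Copa at 0.32 ± 0.37 and Copb1 at -0.12 ± 0.22 (log2 change, SE).

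**Figure D4:**
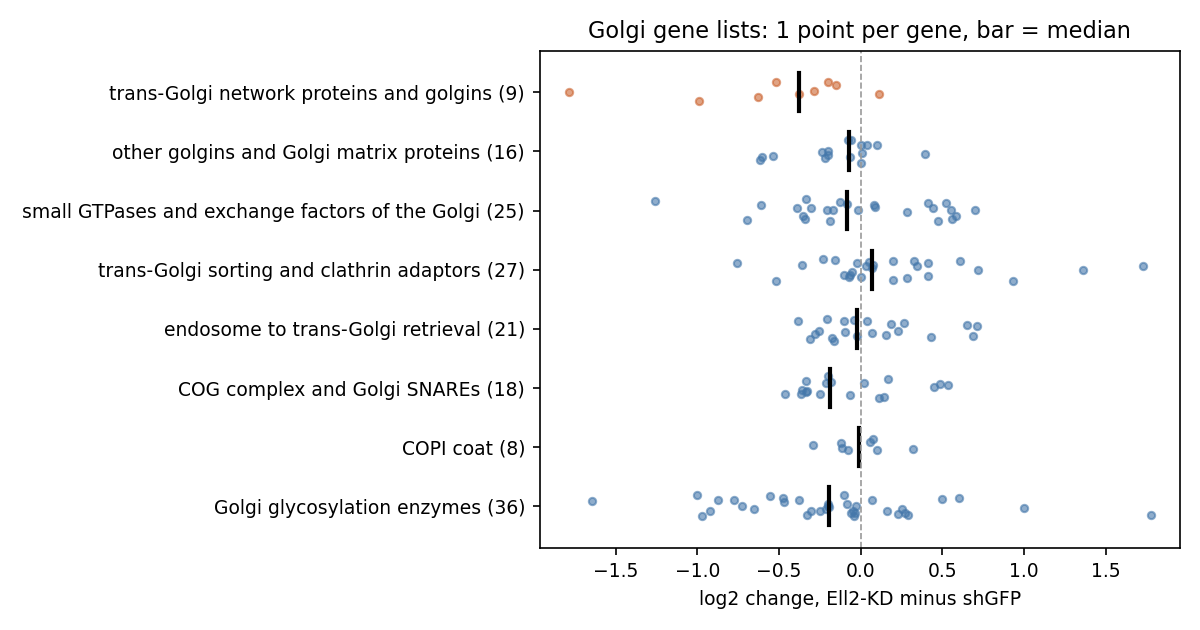
Log2 change, Ell2-KD minus shGFP, with 1 point per tested gene and a black bar at each list's median (numbers of tested genes in brackets; vertical scatter has no meaning). The trans-Golgi network proteins and golgins have a median of -0.38, with Tgoln1 at -1.79 the leftmost point of the plot, and the 7 partner lists have medians from -0.20 to 0.07.

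The genes most like Tgoln1 were found by the distance between centred log2 CPM profiles over the 4 libraries, among 9427 genes with a mean of at least 5 CPM. The 6 nearest were Nav1, a cytoskeletal navigator protein, Dopey2, Vti1b, a SNARE of the endosomal system, Pgap3, which remodels lipid anchors in the Golgi, Pmvk, a kinase of the mevalonate pathway, and Cd180, a B cell surface receptor, at distances from 0.22 to 0.34. Nav1 stood at 21.2 and 23.0 CPM in shGFP and 4.19 and 7.03 CPM in Ell2-KD. Vti1b stood at 22.3 and 22.6 CPM in shGFP and 6.31 and 8.78 CPM in Ell2-KD. None of the 6 passed in edgeR (adjusted p from 0.54 for Pmvk to 0.83 for Dopey2). Their counts in Ell2-KD replicate 2 were low, from 15 (Dopey2) to 30 (Vti1b). All 6 had both depleted libraries below both controls, which follows from choosing them by likeness, and with 4 libraries this likeness is a description of these samples only.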

How the data were processed

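Total RNA of 4 cultures was read by SOLiD RNA-Seq, per the labels' protocols. Raw read counts per gene, 1 table for each library, are what the authors deposited. Tools named in the submitters' processing notes are HTSeq 0.5.3, SAMtools 0.1.11 and DESeq 1.4.1, with build mm9. Aligner, annotation, strand setting and read filters were not given in those sources.

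The genes and lists were chosen with earlier results of these data known. In R 4.3.3, edgeR 4.0.16 kept 11027 genes (filterByExpr, minimum count 10, minimum total 15), scaled libraries by TMM and compared Ell2-KD with shGFP by the two-sided quasi-likelihood test (robust, group as the only term), with p-values adjusted by Benjamini-Hochberg over every tested gene and a threshold of 0.05. The common biological coefficient of variation was 0.43. The SE is the log2 change divided by the square root of F. Distances and differences within a replicate number used log2 CPM with a prior count of 2. DESeq2 1.42.0 was an alternative. The fit was tested on simulated data. Named genes were those of the list, Ell2, the 3 with the smallest p in each partner list and the 6 nearest to Tgoln1; Tlk1, Swi5, Gm20536, Epcam and 3 plasma cell markers were named after their values or overlaps were seen. Exon lengths and overlaps came from GENCODE M21 (GRCm38), whose build differs from mm9.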

Additional observations from a re-analysis of the deposited data

How the results depend on the processing

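With 2 libraries per group the SEs of the 9 tested genes ran from 0.26 to 0.52 on the log2 scale. The shallowest library was Ell2-KD replicate 2, with 32 counts of Golga2, and the part of its depth in these SEs was not tested. Over all genes, 5 passed; the count was 2 with library totals as the only scaling, 22 without a filter on low counts, 34 in DESeq2 and 28 with the replicate number as a block, and 1 to 6 with 1 library left out over the same genes (1 without shGFP replicate 1 or Ell2-KD replicate 2), where the lone library of a group is assumed to vary like the others. Of the golgins and trans-Golgi proteins, 0 passed; the count was 1 (Tgoln1) in DESeq2 and 1 (Tgoln1, edgeR adjusted p = 0.044) with the replicate block. The adjusted p of Tgoln1 ran from 0.00653 (DESeq2) to 1.00 (edgeR, without shGFP replicate 1), and its log2 change from -2.14 to -1.48. With 1 library left out, the sign turned for Gcc2 (-0.095 to 0.36), Golgb1 (-0.46 to 0.12, positive without Ell2-KD replicate 1) and Gorasp2 (-1.12 to 0.22). The other tested genes kept a negative sign in all 11 alternatives, and no partner gene passed in any. Of the 11, adding Tgoln2 to Tgoln1, could change nothing, since Tgoln2 is at 0. The labels do not state whether same-numbered libraries were handled together. Deviations from the group means correlated at 0.31 between same-numbered libraries. The cause of these differences was not tested.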
